A study of Homo sapiens with 6 samples.

Results

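Ribosome biogenesis in human cells begins in the nucleolus, where RNA polymerase I transcribes the precursor of ribosomal RNA (rRNA) and a large set of proteins cuts, modifies and folds it into the small (40S) and large (60S) ribosomal subunits. A list of 58 genes for such proteins was compiled by function, out of the 19330 genes in the RNA-Seq count table. The rule uses no measured value, but the list was chosen with earlier results of these data known. Of these 58 genes, 57 had a row and all 57 passed the filter on low counts, whereas UTP15, a protein of the small-subunit processome, was not analysed here. By step, the list holds 3 core proteins of box C/D small nucleolar ribonucleoproteins (snoRNPs), 6 box H/ACA genes and 3 abundant nucleolar chaperones. The box H/ACA genes encode core proteins of the H/ACA snoRNPs, the assembly factor NAF1 and NOLC1. The list also holds 6 genes of RNA polymerase I and its factors and 17 genes of the small-subunit (SSU) processome. A further 8 genes belong to later 40S maturation and 15 to 60S assembly.

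The libraries came from K562 cells, an established chronic myelogenous leukemia line that expresses embryonic and fetal globins. Control libraries (sgCtrl, n = 3) came from cells transduced with the lentiviral vector pLentiCRISPRv2, which supplies Cas9, and a control sgRNA. The labels name the control targets as the olfactory receptor genes OR11A1 or OR2M49, whereas the methods of the study give OR11A1, OR2M4 and EGFP. The sgN6AMT1 libraries (n = 3) came from cells that received the same vector with an sgRNA against N6AMT1. Cells of both groups were selected with puromycin and analysed 10 days after infection. Each library came from its own lentiviral transduction, so that a sample is a pool of transduced cells and not a clone, and which sgRNA was used for which library is not given in the sources used here. N6AMT1 encodes the methyltransferase of the translation termination factor eRF1. The RNA was purified from a detergent lysate cleared by centrifugation, so RNA in the pellet was not sampled, and the values are steady-state levels of mRNAs, not of the proteins they encode or of rRNA.

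Total counts were 742470 to 866894 per library in sgCtrl and 959319 to 5526904 in sgN6AMT1. N6AMT1 itself was counted 6, 5 and 9 times in sgCtrl and 0, 18 and 16 times in sgN6AMT1, or at 8.08 ± 2.31 against 2.40 ± 2.11 cpm (counts scaled to a fixed library total, mean ± SD, n = 3). The count of 0 in replicate 1 allows up to 3.13 cpm. The groups did not overlap, in the direction of the labels, but the gene was too low for the filter and was not tested. Of 12 erythroid markers of K562 cells, 12 were tested and HBG1, HBG2 and HBE1 rose, and the summed level of all 12 was 13800 to 20300 cpm in sgCtrl and 20700 to 36200 cpm in sgN6AMT1. Of 11 markers of other cell types with a row, MS4A1 and KRT5 were at 0 in every library, and the summed level was 191 to 234 cpm in sgCtrl and 172 to 221 cpm in sgN6AMT1, while LYZ rose (edgeR adjusted p = 0.0489). The part of these shifts in the results was not tested. Replicate 3 of sgN6AMT1 stood apart from the other libraries of its group (chi-square of the counts per degree of freedom of 10.7 and 15.3 against 4.46 between the other two), and values without it are given beside the results that it moved most. In bulk RNA, fewer cells with a transcript and less of it per cell cannot be told apart.

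As background, box C/D snoRNPs use a guide RNA and the methyltransferase FBL to methylate riboses of rRNA, and box H/ACA snoRNPs use the pseudouridine synthase DKC1 with GAR1, NHP2 and NOP10 to convert uridines to pseudouridines. The SSU processome assembles on the nascent precursor and folds and cleaves its 5′ part, pre-40S factors then accompany the small subunit to the cytoplasm, and a separate series of GTPases, helicases and scaffold proteins builds the large subunit. Genes of this pathway are textbook targets of the transcription factor MYC, which binds with MAX to the E-box CACGTG.

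The promoter letters of the members that passed the test are shown because the pathway is known for shared promoter motifs. RefSeq windows on GRCh38.p14, running from 250 bases before to 50 bases from the annotated start on, were found for 51 of the 58 genes. For 4 of the 5 members called below, the 150 bases before the start follow, 5′ to 3′ on the strand of the gene, with capitals on the core of the site of ETS transcription factors, CCGGAAG or its reverse complement CTTCCGG. The window of GNL3L also holds the core, but not whole within the stretch shown, and no window for NOLC1 was used here. The RefSeq starts of NCL and GNL3L differ from the GENCODE gene ends given below.
GAR1, chr4:109815360-109815509, plus strand: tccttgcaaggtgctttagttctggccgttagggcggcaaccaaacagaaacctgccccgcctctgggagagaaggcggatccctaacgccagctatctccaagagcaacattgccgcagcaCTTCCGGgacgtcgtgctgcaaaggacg
NCL, chr2:231464485-231464634, minus strand: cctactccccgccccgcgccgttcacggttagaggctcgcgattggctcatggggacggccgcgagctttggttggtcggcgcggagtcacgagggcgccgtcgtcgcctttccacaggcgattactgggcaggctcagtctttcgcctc
LTV1, chr6:143843188-143843337, plus strand: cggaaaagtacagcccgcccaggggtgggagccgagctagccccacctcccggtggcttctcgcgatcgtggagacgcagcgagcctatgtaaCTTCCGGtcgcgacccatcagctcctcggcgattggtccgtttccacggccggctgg
GNL3L, chrX:54530069-54530218, plus strand: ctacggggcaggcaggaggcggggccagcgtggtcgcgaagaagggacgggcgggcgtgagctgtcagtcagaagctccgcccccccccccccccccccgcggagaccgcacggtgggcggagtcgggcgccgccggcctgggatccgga

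The E-box CACGTG, which reads the same on both strands, was present in 17 of the 51 member windows (33.33%) and in 8.96% of the 14270 windows of genes in the count table. Those 14270 windows were not limited to the 8324 genes that passed the filter on low counts, whereas all 57 members with a row passed it. For each of the 5 steps with such a member, 30 bases around the E-box are shown for the one with the highest cpm in sgCtrl, which in pre-40S maturation is LTV1, with the motif in capitals.
FBL, chr19:39846356-39846385, minus strand: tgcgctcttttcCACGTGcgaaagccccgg
NOP10, chr15:34343130-34343159, minus strand: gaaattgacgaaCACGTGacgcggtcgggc
WDR43, chr2:28894658-28894687, plus strand: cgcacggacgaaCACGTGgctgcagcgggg
LTV1, chr6:143843354-143843383, plus strand: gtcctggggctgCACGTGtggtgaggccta
GNL2, chr1:37595917-37595946, minus strand: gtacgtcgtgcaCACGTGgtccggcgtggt
In 15 of the 17 members (88.2%) an E-box began between 11 bases before the start and base 36 after it, and the same held for 204 of the 1279 windows of genes in the count table that hold an E-box (15.9%). This interval was set after the members' positions were seen, and the shares are descriptions.

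Nucleolar ribosome biogenesis mRNAs lay mostly below their control level in sgN6AMT1 cells, by a small amount for most genes. The largest falls that passed the test were those of GAR1, a core protein of the H/ACA snoRNPs, and NCL, which encodes nucleolin, and LTV1, GNL3L and NOLC1 fell by less. Of the 57 members tested, 5 (8.77%) were lower in sgN6AMT1 at an adjusted p under 0.05 (edgeR quasi-likelihood test, Benjamini-Hochberg over 8324 genes), against 4.76% of all genes tested, and 0 were higher, against 5.09% of all genes. At an unadjusted p under 0.05, 16 members were lower and 2 higher by edgeR, where 13.1% of all genes were lower and 13.2% higher. DESeq2 called 4 members lower (NOLC1, NPM1, LTV1 and GNL3L) and 0 higher, in a fit that called 3.48% of all genes lower and 3.06% higher.

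The median log2 fold change of the members was -0.16, beside 0.01 for all genes tested, and 41 of 57 had a negative value. For 15 members (26.3%) every sgN6AMT1 library lay below every sgCtrl library, which held for 14.1% of all genes, and for 4 members (7.02%) every sgN6AMT1 library lay above, beside 15.1% of all genes. A further 6 members had an adjusted p between 0.05 and 0.10, of which DKC1, NOP58, RRP1, UBTF and NPM1 had negative values and NPM3 a positive one. Leaving out sgCtrl replicate 2 reduced the members called lower to LTV1 alone, in a fit that called 1.26% of all genes lower. Without sgCtrl replicate 1 the members called lower were GAR1, NCL and LTV1, in a fit that called 1.62% of all genes lower.

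**Figure D1:**
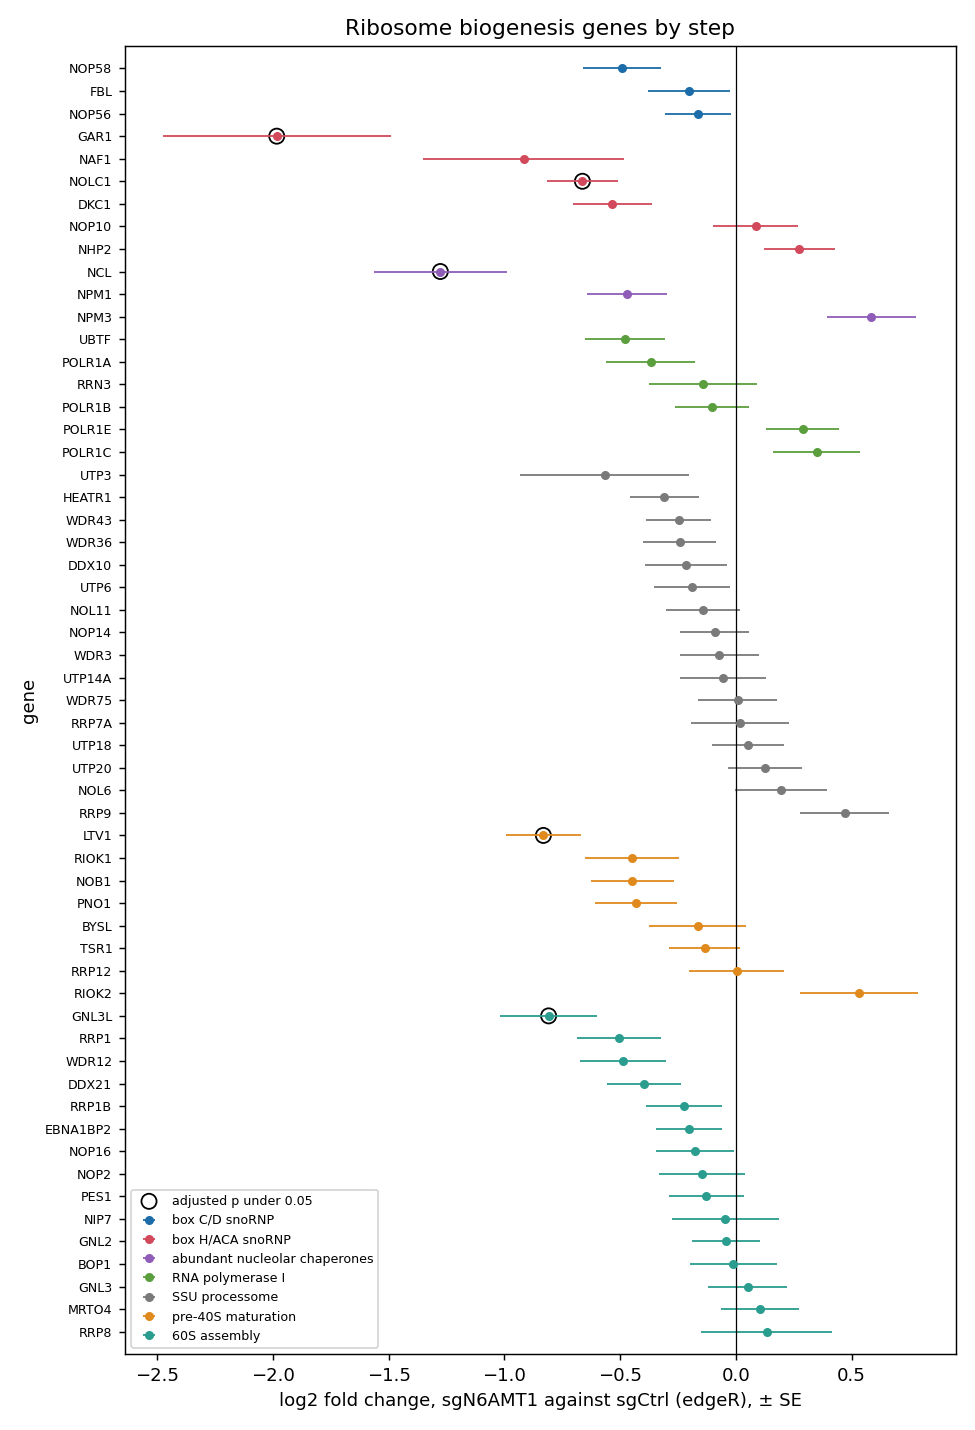
Log2 fold change of each of the 57 genes tested (x axis, sgN6AMT1 against sgCtrl, edgeR; bars are ± SE), grouped and coloured by step and sorted within each step; circles mark an adjusted p under 0.05. The values run from -1.98 for GAR1 to 0.59 for NPM3, and the 5 circled genes all lie left of 0.

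The members together took 1.22%, 1.36% and 1.26% of the counts on tested genes in the sgCtrl libraries and 1.075%, 1.07% and 0.926% in the sgN6AMT1 libraries, a mean of 1.28% ± 0.07 against 1.02% ± 0.08 (SD, n = 3). Every sgN6AMT1 library thus lay below every sgCtrl library. Without NPM1 and NCL, which had the highest cpm, the shares were 0.867% to 0.93% and 0.743% to 0.788%. The median member lay -0.20, -0.17 and -0.17 from the sgCtrl mean on the log2 scale in the 3 sgN6AMT1 libraries, and 38, 41 and 42 of the 57 members were below their sgCtrl mean. In the sgCtrl libraries the corresponding medians were -0.03, 0.06 and -0.01 with 34, 24 and 30 members below the mean.

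Among the box C/D proteins, no member passed the test, and the median log2 fold change was -0.20 over 3 genes. This median was -0.36 without sgN6AMT1 replicate 3, -0.31 without sgCtrl replicate 1, -0.14 without sgCtrl replicate 3 and -0.42 when GC content and length were corrected for. NOP58, which pairs with NOP56 to hold the guide RNA and FBL, had 238, 264 and 193 cpm (normalized by TMM, as are all cpm from here on) in sgCtrl and 176, 185 and 136 cpm in sgN6AMT1. The groups did not overlap, and its log2 fold change was -0.49 (SE 0.17, edgeR adjusted p = 0.0688). NOP56, the most abundant of the 3 genes in cpm, was at 407, 420 and 441 cpm against 340, 366 and 422 cpm. Its groups overlapped through replicate 3 of sgN6AMT1, and the log2 fold change was -0.16 (SE 0.14, edgeR adjusted p = 0.499). FBL overlapped as well, at 260 ± 56.1 against 226 ± 44 cpm (SD, n = 3).

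The box H/ACA genes held the member that changed most and did not share a direction. GAR1 and NOLC1 fell, DKC1 and NAF1 had negative values that missed the threshold, and NHP2 and NOP10 had positive ones. The median over the 6 genes was -0.60, which lay between the values of DKC1 and NOLC1. With at least 10 counts required in every library, which leaves out GAR1 and NAF1, the median was -0.20. NOLC1 and NAF1 are not parts of the mature particle. The core proteins GAR1, DKC1, NOP10 and NHP2 were at -1.98, -0.53, 0.09 and 0.27. GAR1 lies at chr4:109815510-109824740 on the plus strand (GENCODE v44, GRCh38), and its canonical transcript has 1015 bases in 7 exons. GAR1 had 26, 42 and 32 raw counts in sgCtrl and 18, 79 and 6 in the larger sgN6AMT1 libraries, which is 34.9, 48.5 and 37.7 against 19.0, 14.4 and 1.54 cpm. Every sgN6AMT1 library was below every sgCtrl library, and replicate 3 was far below the other two. The mean was 28.8% of control and the log2 fold change -1.98 (SE 0.49, edgeR adjusted p = 0.0173). Without sgN6AMT1 replicate 3 it was -1.36 (edgeR adjusted p = 0.00721), without sgCtrl replicate 2 the adjusted p was 0.106, and by DESeq2 it was 0.223, so the call rests on the choice of tool and on that control library.

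NOLC1 encodes a phosphoprotein that shuttles snoRNPs between the nucleolus and Cajal bodies. Its level was 293, 295 and 248 cpm in sgCtrl and 196, 185 and 150 cpm in sgN6AMT1. The groups did not overlap, the mean was 63.5% of control, and the log2 fold change was -0.66 (SE 0.16, edgeR adjusted p = 0.013; DESeq2 adjusted p = 0.00472). Leaving out sgCtrl replicate 1 or 2 gave adjusted p-values of 0.0583 and 0.0865.

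DKC1, the pseudouridine synthase, was at 302, 351 and 311 cpm in sgCtrl and 252, 253 and 165 cpm in sgN6AMT1. These groups did not overlap either, and the log2 fold change was -0.53 (SE 0.17, edgeR adjusted p = 0.0524). Without sgN6AMT1 replicate 3 it was -0.35 (edgeR adjusted p = 0.158). NAF1, an assembly factor that GAR1 replaces in the mature particle, was the lowest member in mean cpm in sgCtrl, whereas GAR1 was the lowest in sgN6AMT1. NAF1 was at 23.3 ± 13.3 against 14 ± 7.31 cpm (SD, n = 3), with overlapping groups. NHP2, by contrast, was at 122, 127 and 121 cpm against 151, 143 and 156 cpm, higher in each sgN6AMT1 library, with a log2 fold change of 0.27 (SE 0.15, edgeR adjusted p = 0.268). This value was 0.06 once the GC content and length of the transcripts had been corrected for in each library. The log2 ratio of NHP2 to GAR1 within a library was 1.79, 1.38 and 1.67 in sgCtrl and 2.95, 3.30 and 6.54 in sgN6AMT1. With 3 libraries against 3, an exact permutation test cannot give a p below 0.1, and such ratios are given as values.

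Of the 3 abundant nucleolar chaperones, NCL fell, and NPM1 and NPM3 had values of opposite sign that did not pass the test. NCL (chr2:231453531-231483641, minus strand, 14 exons in the canonical transcript) encodes nucleolin, an RNA-binding protein of the nucleolus that acts on rRNA transcription and on the precursor. It had 832, 1027 and 579 cpm in sgCtrl and 409, 454 and 149 cpm in sgN6AMT1. The lowest control library still lay above the highest sgN6AMT1 library, and replicate 3 was again the lowest. The mean was 41.5% of control and the log2 fold change -1.28 (SE 0.29, edgeR adjusted p = 0.0103). Without sgN6AMT1 replicate 3 it was -0.91 (edgeR adjusted p = 0.00131), without sgCtrl replicate 2 it was -1.08 (edgeR adjusted p = 0.0875), and by DESeq2 the adjusted p was 0.121.

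NPM1, or nucleophosmin, a histone and ribosome chaperone, was the most abundant member in cpm and per length, at 2612, 3218 and 3164 cpm in sgCtrl and 2456, 2306 and 1733 cpm in sgN6AMT1. The groups did not overlap, and the log2 fold change was -0.47 (SE 0.17, edgeR adjusted p = 0.0859; DESeq2 adjusted p = 0.036). NPM1 has many processed pseudogenes, and how reads that map to several places were counted is not given in the sources used here. NPM3, a smaller paralog that binds NPM1, was at 55.1, 69.2 and 84.9 cpm against 101, 95.5 and 118 cpm. Each sgN6AMT1 library was above each control library, and the log2 fold change of 0.59 (SE 0.19, edgeR adjusted p = 0.0613) was the highest of all members in this fit. With GC content and length corrected for it was 0.39, below RIOK2 at 0.68, and without sgCtrl replicate 3 it was 0.75 (edgeR adjusted p = 0.0437), close to RIOK2 at 0.76. The log2 ratio of NPM3 to NPM1 was -5.55, -5.53 and -5.21 in sgCtrl and -4.60, -4.59 and -3.88 in sgN6AMT1, with no overlap.

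**Figure D2:**
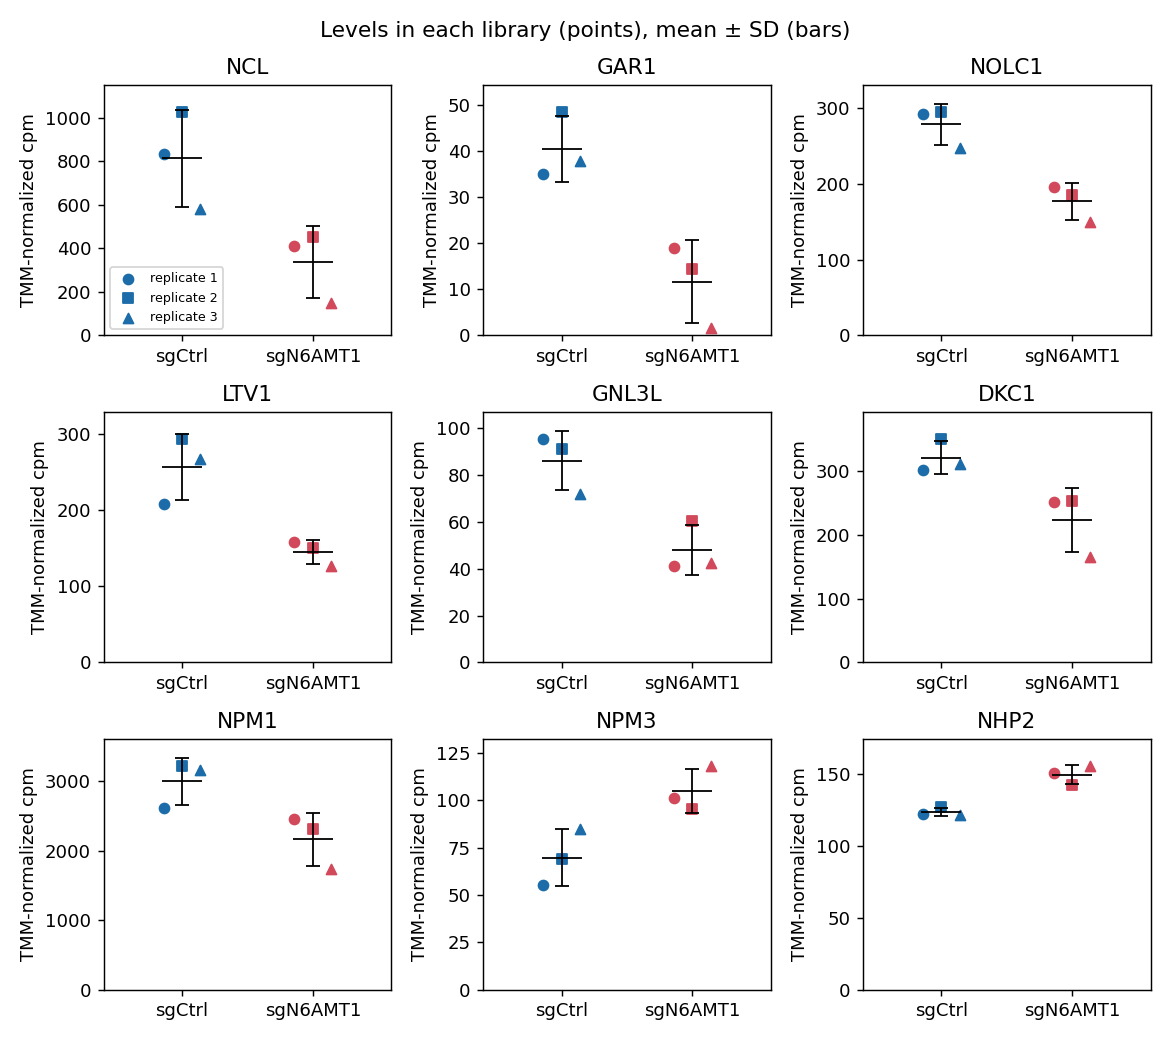
TMM-normalized cpm (y axis, starting at 0, a separate scale for each gene) of 9 genes in each library, with sgCtrl in blue and sgN6AMT1 in red; symbols are replicates 1 to 3 and bars are mean ± SD. For NCL, GAR1, NOLC1, LTV1, GNL3L, DKC1 and NPM1 the sgN6AMT1 points lie below the sgCtrl points, and for NPM3 and NHP2 above them.

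No gene of RNA polymerase I or its factors passed the test, and the median was -0.12 over 6 genes, or -0.037 with GC content and length corrected for. UBTF, the upstream binding factor that keeps rRNA genes open, had 198, 194 and 136 cpm in sgCtrl and 139, 130 and 111 cpm in sgN6AMT1. Its groups touched, since sgCtrl replicate 3 lay below sgN6AMT1 replicate 1, and the log2 fold change was -0.48 (SE 0.17, edgeR adjusted p = 0.0843). POLR1A, the largest subunit, had overlapping levels with a log2 fold change of -0.37 (SE 0.19, edgeR adjusted p = 0.237). POLR1C, a subunit shared with RNA polymerase III, had the highest value of the step at 0.35 (SE 0.19, edgeR adjusted p = 0.249), again with overlap. POLR1E was at 122, 140 and 132 cpm against 176, 144 and 165 cpm, and was thereby the only gene of the step whose groups did not overlap. RRN3, which recruits the polymerase, and POLR1B had values of -0.14 and -0.10.

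In the SSU processome, 0 genes were called in either direction, and the 16 log2 fold changes ran from -0.57 to 0.47 with a median of -0.08. The median was -0.18 without replicate 1 of either group, -0.025 without sgCtrl replicate 3 and -0.024 without sgN6AMT1 replicate 2. At an unadjusted p under 0.05, RRP9 alone was past the threshold by edgeR. HEATR1, a large scaffold protein and the most abundant gene of the step in cpm, was at 344, 470 and 407 cpm in sgCtrl and 339, 340 and 308 cpm in sgN6AMT1. Its groups did not overlap by a small margin, and the log2 fold change was -0.31 (SE 0.15, edgeR adjusted p = 0.193). WDR36 and WDR43, which are parts of the processome with WD repeats, were lower in every sgN6AMT1 library as well, with log2 fold changes of -0.24 (SE 0.16) and -0.25 (SE 0.14). UTP3 had the lowest value of the step, -0.57, with a large error (SE 0.37, edgeR adjusted p = 0.342) and libraries from 23.6 to 50.8 cpm in sgCtrl. This value rested on single libraries, since it was -0.17 without sgN6AMT1 replicate 3, -0.26 without sgCtrl replicate 2 and -0.98 without sgN6AMT1 replicate 2. RRP9, which binds the U3 snoRNA that guides the first cleavages, was at 56.4, 51.9 and 49.5 cpm against 68.5, 75.2 and 73.5 cpm. All sgN6AMT1 libraries were above all sgCtrl libraries, and the log2 fold change was 0.47 (SE 0.19, edgeR adjusted p = 0.125). With GC content and length corrected for it was 0.23, and with sgN6AMT1 replicates 2 and 3 thinned 0.32. The remaining 11 genes of the step had log2 fold changes from -0.22 for DDX10 to 0.20 for NOL6 and overlapping groups.

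In pre-40S maturation, LTV1 fell and 5 of the other 7 genes had negative values, for a median of -0.30. LTV1 (chr6:143843338-143863812, plus strand, 11 exons) encodes an assembly factor that sits at the head of the pre-40S particle and has to leave before the subunit can mature. It was at 208, 293 and 266 cpm in sgCtrl and 158, 150 and 127 cpm in sgN6AMT1. The groups were well separated, the mean was 56.6% of control, and the log2 fold change was -0.83 (SE 0.16, edgeR adjusted p = 0.00443). It was the only member whose adjusted p stayed under 0.05 in all 16 alternative fits that were run, with a highest value of 0.0492.

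NOB1, the endonuclease that cuts the 3′ end of 18S rRNA, was at 92.7, 130 and 104 cpm against 81.1, 82.3 and 77.1 cpm. Its partner PNO1 was at 101, 103 and 91.9 cpm against 65.3, 80.5 and 70.7 cpm. Neither pair of groups overlapped, with log2 fold changes of -0.45 (SE 0.18) and -0.43 (SE 0.18) and edgeR adjusted p-values of 0.117 and 0.126. The kinases RIOK1 and RIOK2 act late on the particle and had values of opposite sign. RIOK1 had a log2 fold change of -0.45 (SE 0.20, edgeR adjusted p = 0.168) and RIOK2 of 0.53 (SE 0.26, edgeR adjusted p = 0.194), each with overlapping groups. The value of RIOK2 was 0.28 without sgCtrl replicate 2. The log2 ratio of RIOK2 to RIOK1 was -1.30, -2.30 and -1.15 in sgCtrl and -0.73, -0.50 and -0.45 in sgN6AMT1, with no overlap. BYSL, TSR1 and RRP12 lay between -0.17 and 0.00.

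In 60S assembly, GNL3L fell, 12 of 15 genes had negative values, and the median was -0.15, or -0.28 with GC content and length corrected for. GNL3L (chrX:54530183-54621521, plus strand, 16 exons) encodes a nucleolar GTPase related to nucleostemin. It was at 95.4, 91.1 and 71.9 cpm in sgCtrl and 41.1, 60.2 and 42.4 cpm in sgN6AMT1. No library of either group lay within the range of the other, the mean was 55.6% of control, and the log2 fold change was -0.81 (SE 0.21, edgeR adjusted p = 0.0219; DESeq2 adjusted p = 0.02). Leaving out sgCtrl replicate 1 or 2 gave adjusted p-values of 0.0921 and 0.106. GNL3, nucleostemin itself, was at 263 ± 65.7 against 273 ± 19.9 cpm (SD, n = 3), with a log2 fold change of 0.05 (SE 0.17). The log2 ratio of GNL3 to GNL3L was 0.99, 1.603 and 2.14 in sgCtrl and 2.74, 2.26 and 2.56 in sgN6AMT1, so that these groups did not overlap.

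RRP1, a protein of pre-60S particles that has been named as a substrate of N6AMT1, was at 121, 113 and 114 cpm in sgCtrl and 66.4, 77.6 and 97.2 cpm in sgN6AMT1. The groups did not overlap, and the log2 fold change was -0.50 (SE 0.18, edgeR adjusted p = 0.0796). Its paralog RRP1B was at 143 ± 16.5 against 121 ± 16.3 cpm (SD, n = 3), with a log2 fold change of -0.22 (SE 0.17, edgeR adjusted p = 0.419). DDX21, an RNA helicase and the most abundant gene of the step in cpm, was at 758, 845 and 631 cpm against 608, 621 and 469 cpm. Its groups were separated by a small margin, and the log2 fold change was -0.40 (SE 0.16, edgeR adjusted p = 0.121).

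PES1, BOP1 and WDR12 form a complex that is needed for 60S formation, and they did not share a value. PES1 was at -0.13 (SE 0.16), BOP1 at -0.01 (SE 0.19) and WDR12 at -0.49 (SE 0.19, edgeR adjusted p = 0.105) on the log2 scale. The highest value of the step was 0.13 (SE 0.28) for RRP8, a nucleolar methyltransferase, whose sgCtrl libraries ranged from 24.2 to 59.99 cpm. The rRNA methyltransferase NOP2, the GTPase GNL2, and NOP16, NIP7, EBNA1BP2 and MRTO4 lay between -0.20 and 0.10 with overlapping groups.

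Levels can be compared between genes only per length of transcript. Per kilobase of the canonical transcript, the sgCtrl means of the 57 members ran from 6.08 cpm for RRP8 to 2270 cpm for NPM1, with a median of 44.3. Next to NPM1 came FBL at 231, NOP56 at 221, NCL at 207 and EBNA1BP2 at 199 cpm per kilobase, which lay close together. In sgN6AMT1 the means of NPM1, FBL and NOP56 were 1640, 201 and 197 cpm per kilobase. NCL, at 85.9, fell below NHP2 (192), NOP10 (185), EBNA1BP2 (173), GNL3 (141) and DDX21 (121). It also fell below GNL2 (118), NPM3 (115), NOP16 (108), MRTO4 (96.3), DKC1 (90.5) and POLR1E (87.2). GAR1 was at 39.8 cpm per kilobase in sgCtrl, below its partners DKC1 (130), NHP2 (158) and NOP10 (176), and at 11.5 in sgN6AMT1. At this depth, 54 of the 57 members had at least 20 counts in every library.

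**Figure D3:**
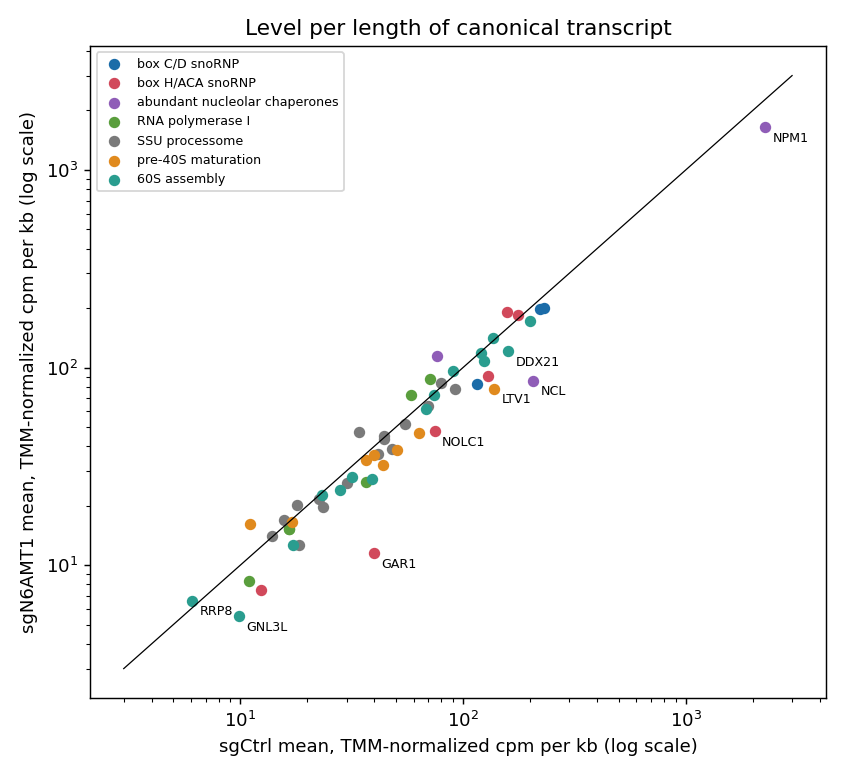
Mean TMM-normalized cpm per kilobase of canonical transcript in sgN6AMT1 (y axis) against sgCtrl (x axis), both on log scales, for the 57 genes tested, coloured by step; the line marks equal levels. NPM1 stands alone at the top with 2270 and 1640 cpm per kilobase, and GAR1 lies farthest below the line at 39.8 and 11.5.

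By step, the sgN6AMT1 libraries differed in how far they moved. In sgN6AMT1 replicates 1, 2 and 3, the log2 level of the median H/ACA gene lay -0.15, -0.46 and -0.92 from the sgCtrl mean, and that of the median chaperone -0.28, -0.37 and -0.78. Replicate 3 was the lowest of the 3 in both steps. The pre-40S genes were at -0.26, -0.26 and -0.41, while the sgCtrl libraries were at -0.10, 0.00 and 0.02. For 60S assembly the sgN6AMT1 medians were -0.257, -0.0738 and -0.129 and the sgCtrl medians 0.0362, 0.0909 and -0.072, so that sgN6AMT1 replicate 2 and sgCtrl replicate 3 almost met. For box C/D, replicate 3 of sgN6AMT1 was at 0.00.

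**Figure D4:**
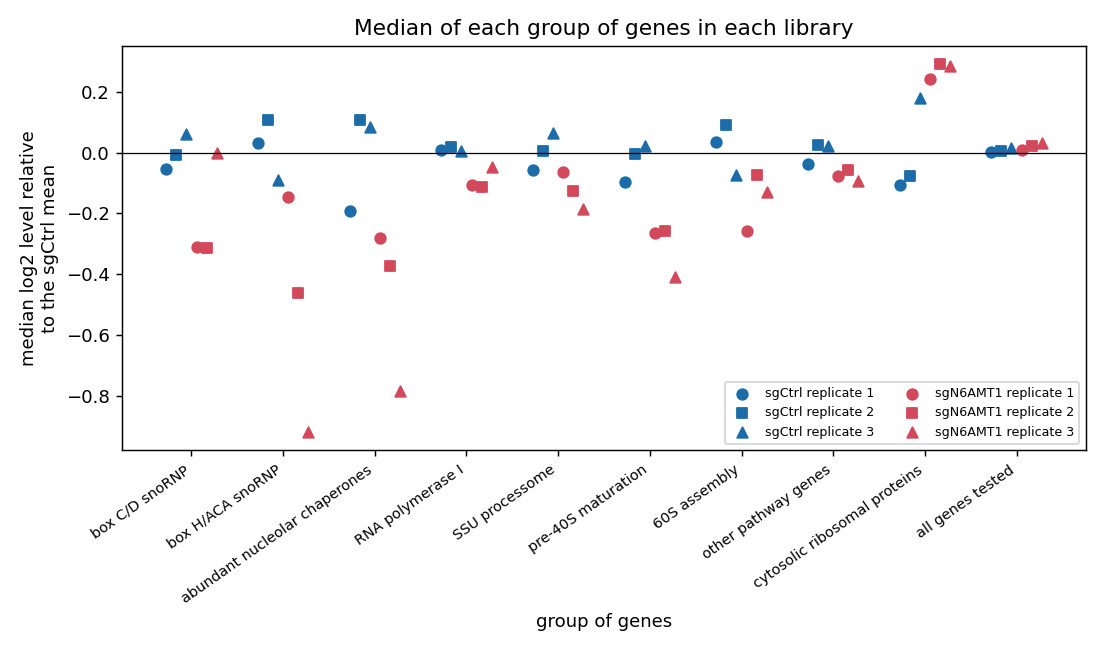
Median log2 level relative to the sgCtrl mean (y axis) of each group of genes (x axis) in each of the 6 libraries; blue is sgCtrl, red is sgN6AMT1, and symbols are replicates. The H/ACA genes and the chaperones reach -0.92 and -0.78 in sgN6AMT1 replicate 3, the ribosomal proteins lie between 0.24 and 0.29 in the sgN6AMT1 libraries, and all genes tested lie near 0 in every library.

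Of 125 further genes of ribosome biogenesis, listed by function, 121 were tested, with a median log2 fold change of -0.12. Of these, 5 (4.13%) were lower and 1 was higher by edgeR, against 4.76% lower and 5.09% higher among all genes. ESF1, a nucleolar factor of early 18S processing, went from 56.4, 66.9 and 48.3 cpm in sgCtrl to 25.3, 34.3 and 19.0 cpm, a log2 fold change of -1.10 (SE 0.26, edgeR adjusted p = 0.0133). The 60S factors MAK16, PWP1 and URB1 fell by 0.70, 0.74 and 0.56 on the log2 scale (edgeR adjusted p = 0.0211, 0.0122 and 0.0382). TAF9, which fell by 0.67 (edgeR adjusted p = 0.0207), is best known as a subunit of the transcription factor TFIID, and its gene overlaps AK6. NSUN5, an rRNA methyltransferase of the large subunit, rose by 0.83 (edgeR adjusted p = 0.0136), and it has closely similar pseudogenes. In groups, the median was -0.01 for 36 other SSU processome genes and -0.16 for 52 other 60S genes. It was -0.22 for 15 genes of the RNA exosome and exonucleases and -0.10 for 10 other RNA polymerase I genes. For 8 genes listed under the H/ACA step the median was -0.05. These 8 are SHQ1, RUVBL1, RUVBL2, NUFIP1, PIH1D1, TAF9, NOL7 and COIL, and not all of them are H/ACA proteins.

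The cytosolic ribosomal proteins, the building blocks that these factors assemble, were mostly above their control level. Of 74 tested, 62 had positive and 12 negative values. Of these genes, 13 were higher and 0 lower by edgeR, where 5.09% of all genes were higher and 4.76% lower. At an unadjusted p under 0.05 by edgeR, 29 were higher and 1 lower, beside 13.2% and 13.1% of all genes. The median log2 fold change was 0.27, and a value corrected for GC content and length is not given for this list. RPS10 went from 1208, 1181 and 1458 cpm to 1773, 2245 and 2997 cpm, a log2 fold change of 0.87 (SE 0.18, edgeR adjusted p = 0.00788), and RPS18 from 2751, 2869 and 3834 cpm to 4687, 5272 and 5038 cpm, a change of 0.67 (SE 0.17, edgeR adjusted p = 0.0206). Ribosomal protein genes have many processed pseudogenes. The median of the list lay at -0.11, -0.08 and 0.18 in the sgCtrl libraries and at 0.24, 0.29 and 0.28 in the sgN6AMT1 libraries, so that sgCtrl replicate 3 was nearest to the sgN6AMT1 level.

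**Figure D5:**
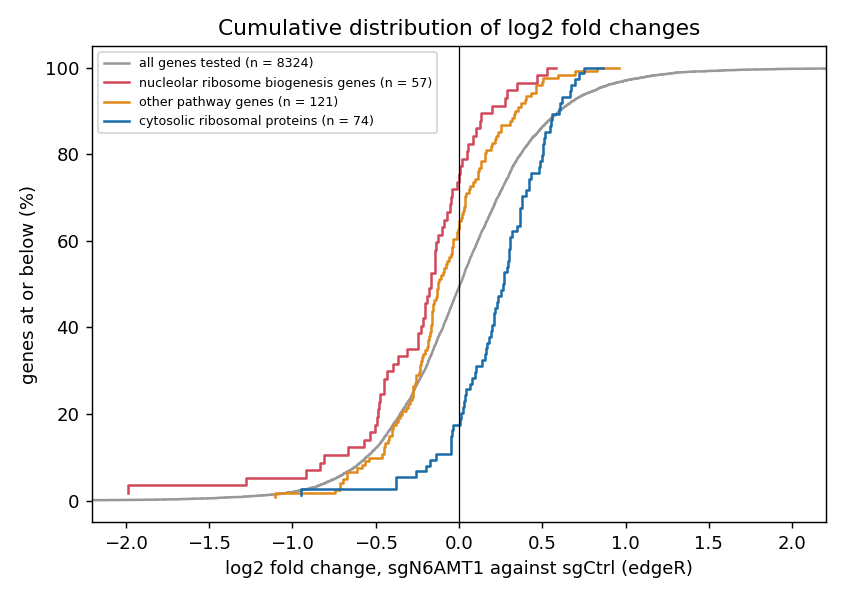
Share of genes (y axis, %) at or below each log2 fold change (x axis, sgN6AMT1 against sgCtrl, edgeR) for the 57 nucleolar genes, 121 other pathway genes, 74 cytosolic ribosomal proteins and all 8324 genes tested. The medians are -0.16, -0.12, 0.27 and 0.01, so the curve of the nucleolar genes lies to the left and that of the ribosomal proteins to the right.

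What the members share outside their step was compared with their fold changes. The 17 members with an E-box in the window had a median log2 fold change of -0.09, with LTV1 the only one called. The 33 tested members without one had -0.19, with 3 called lower. Of all genes tested, 4.76% were called lower, and so few calls cannot tell members with and without an E-box apart. The ETS core was present in 18 of 51 member windows (35.29%) against 14.32% of the windows of genes in the count table, whether or not these genes passed the filter. The median log2 fold changes of members with and without the core were both -0.16. TATAAA, the core of the TATA box, was searched on both strands and found in 2 member windows (3.92%) against 9.36%. MYC was not analysed here. Of its partners and relatives, 6 were tested and 0 called by edgeR, beside 4.76% of all genes called lower and 5.09% higher. Among them MAX, at an unadjusted p of 0.0445 by edgeR, was at 50.8 ± 9.07 against 36.3 ± 11.8 cpm (SD, n = 3), with a log2 fold change of -0.56 (SE 0.26, edgeR adjusted p = 0.177).

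Introns of 8 members hold snoRNA genes (NOP56, NOP58, DKC1, NCL, WDR43, NOL11, TSR1 and GNL3), so that these genes encode snoRNP proteins or other nucleolar factors and carry snoRNAs as well. The median log2 fold change of the 8 host genes was -0.21 and that of the other 49 members -0.15. The snoRNAs themselves were not analysed here.

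Over all nuclear genes the fold changes moved with base composition and with transcript length. The correlation with log2 length was r = -0.173 and rho = -0.197 over all nuclear genes, and r = -0.0589 and rho = -0.105 among the members. All nuclear genes were divided into 5 equal groups by the GC content of the canonical transcript. Their medians from the lowest to the highest group were -0.14, -0.07, 0.02, 0.11 and 0.19 on the log2 scale. Among the members, the correlation of GC content and log2 fold change was r = 0.20 and rho = 0.23 across 57 genes, which share the same 6 libraries, and 3 groups of 19 members, ordered by rising GC content, had medians of -0.24, -0.20 and -0.13. The median GC content of the members was 46.7%, close to that of the middle group of all genes (47.1%), whose median log2 fold change was 0.02. Once GC content and length were corrected for, the median of the members was -0.17 and 10 were called lower, including each of the 5 above, in a fit that called 5.85% of all genes lower.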

How the data were processed

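RNA-Seq was measured in 6 K562 libraries, 3 sgCtrl and 3 sgN6AMT1, grouped and numbered by their labels. The authors trimmed reads with cutadapt (minimum length 15, quality cutoff 2), mapped the rest to GRCh38 with HISAT2 (default settings), and counted overlaps with genes of annotation release 84. The deposited values are raw counts per gene, without normalization. The labels call the molecule polyA RNA, whereas the library kit they name is a stranded total RNA kit with rRNA depletion. Tool versions, the counting program, its strand setting and its treatment of multi-mapping reads are not given in the sources used here.

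Everything else was computed from these deposited counts. Gene symbols rewritten as currency values by a spreadsheet program (47, among them BOP1 and PES1) were restored, and 18912 of 19330 symbols matched GENCODE v44, 884 through an older symbol. The filter on low counts (filterByExpr) kept 8324 genes. After TMM scaling these were compared between the 2 groups, with no covariate, by the quasi-likelihood F test of edgeR 4.0.16 in R 4.3.3 (common BCV 0.16), and p-values were adjusted by the Benjamini-Hochberg method over all 8324. An SE is the absolute log2 fold change divided by the square root of the F statistic. Levels relative to the sgCtrl mean used log2 cpm with a prior count of 2. Promoter letters and motif positions came from RefSeq windows (Python 3.11.15). Depth limits the precision, since a count of 0 allows up to 3 counts, or 0.543 to 4.04 cpm by library, and covers counting error only. On simulated counts, the fit recovered 96 of 96 genes with a log2 change of 2 and 71 of 95 with a change of 1. It called 6 of 7970 unchanged genes, among 8161. The counts were drawn from a negative binomial with the trended dispersion of the fit. They held no library that stood apart and no trend with GC content or length, so the recovery covers that setting only.

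Named genes are the members called, the highest and lowest log2 fold change and the most abundant member in each step, RRP1 and N6AMT1; others are listed by name as part of their step. The members, the lists and the steps were chosen with earlier results of these data known. Alternatives tried were DESeq2 1.42.0, total counts or RLE scaling in edgeR, no filter, at least 10 counts in every library, no mt-DNA-encoded genes, a replicate block, a correction for GC content and length (values for 98.5% of genes tested) with and without the block, thinning of sgN6AMT1 replicates 2 and 3 to 858710 counts, and each library left out. Set tests were not run.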

Additional observations from a re-analysis of the deposited data

How the results depend on the processing

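In the 16 alternative fits the median log2 fold change of the ribosome biogenesis genes stayed between -0.19 and -0.12, and from -0.19 to -0.14 with a library left out. The number called lower (5) was 8 without a filter on low counts, 10 with a correction for GC content and length, and 1 to 7 with a library left out, in fits that called 4.13%, 5.85% and 1.26% to 5.54% of all genes lower, against 4.76%, and the number called higher (0) was 1 without the filter (NPM3) and 0 to 1 with a library left out. Without the filter the median of all genes was 0.12, and 1201 of 13874 genes were called in all, 573 of them lower. Whether libraries of the same number were handled together is not given in the sources used here. The deviations of same-numbered libraries correlated at 0.00, 0.08 and 0.19, and those of the other pairings at -0.194 to 0.14. These values cannot decide whether the libraries are paired. The replicate block gave 10 called lower and 1 higher, and together with the GC and length correction 13 lower and 1 higher (RIOK2), where 7.3% and 8.72% of all genes were lower. Of 8324 genes, the block called 1195 in all, 608 of them lower, and the block with the correction called 1339 in all, 726 of them lower. Further pathway genes called (6) were 16 with the block and the correction, and 2 to 9 with a library left out. These fits called 1339 and 220 to 951 genes in all, against 820 in the main fit. The cause of these differences was not tested. RRP8 (0.13, not called) was -0.12 with thinned libraries and -0.12 to 0.55 with a library left out, negative when that was replicate 1 of sgCtrl or replicate 3 of sgN6AMT1 (-0.084). The RNA polymerase I median ranged from -0.14 to 0.022 with a library left out, and was positive without sgCtrl replicate 3. Falls of the size seen in most members, under 0.5 on the log2 scale, were smaller than the changes simulated. The p-values measure the spread between these 6 libraries.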
